A study of Mus musculus with 20 samples.

Results

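The 10 genes described here form the core circadian clock of mammalian cells. They are the activators Arntl (also called Bmal1), Clock and Npas2, the repressors Per1, Per2, Per3, Cry1 and Cry2, and the nuclear receptors Nr1d1 and Nr1d2, which encode REV-ERBα and REV-ERBβ. They were chosen as textbook members of the clock, with earlier results of these data known. They were found by matching their symbols to Ensembl identifiers, and they are 10 of the 55401 genes in the count matrix. All 10 passed the filter on low counts, as did 12923 genes in all. The RNA came from a calf muscle, the gastrocnemius, taken from 20 C57BL/6 mice aged 24 months. Of these, 10 were untreated and 10 had been given HK (Haenkenium, an extract of the plant Salvia haenkei) for 4 months, from the age of 20 months, at 0.5 mg/kg/day dissolved in what they drank. Each treatment group held 5 males and 5 females. The labels place 8 mice (4 per treatment group) in a first sequencing experiment, called batch 1 here, and 12 mice (6 per treatment group) in a second, called batch 2. The total count per mouse ran from 13900180 to 30469644, with a median of 20950853 in batch 1 and of 15766065.5 in batch 2, and levels are given as CPM, counts scaled to the same total in every mouse with TMM normalization. The 8 markers of fast muscle fibres, led by the myosin gene Myh4, summed to between 131200 and 184500 CPM in the 20 mice, which fits the labelled tissue.

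In most cells of the body the ARNTL protein pairs with CLOCK, or with NPAS2 in its place, and this pair binds DNA and switches on the Per, Cry and Nr1d genes. PER and CRY proteins then enter the nucleus and block the pair, while REV-ERB proteins repress Arntl and the ROR proteins raise it, so that over the day Arntl RNA is high when the RNA of Nr1d1 and of the Per genes is low. In skeletal muscle this clock is known for timing the use of glucose and lipid as fuel. The mice lived under a 12 h daylight cycle, and neither the labels nor the methods give the hour at which muscle was taken.

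The activators lie on 3 chromosomes of the mouse genome (build GRCm38). Arntl (ENSMUSG00000055116) is at chr7:113207465-113314126 on the plus strand, Clock (ENSMUSG00000029238) at chr5:76209868-76304792 on the minus strand and Npas2 (ENSMUSG00000026077) at chr1:39193731-39363236 on the plus strand. The period genes Per1 (ENSMUSG00000020893, chr11:69095217-69109960, plus strand), Per2 (ENSMUSG00000055866, chr1:91415982-91459324, minus strand) and Per3 (ENSMUSG00000028957, chr4:151003652-151044665, minus strand) encode the proteins that carry the cryptochromes into the nucleus. The cryptochromes themselves, which hold the activators down, are encoded by Cry1 (ENSMUSG00000020038, chr10:85131700-85185064, minus strand) and Cry2 (ENSMUSG00000068742, chr2:92403646-92434043, minus strand). Nr1d1 (ENSMUSG00000020889, chr11:98767932-98775333) and Nr1d2 (ENSMUSG00000021775, chr14:18204054-18239127), both on the minus strand, are haem-binding repressors of Arntl. Exons of 3 members overlap those of a gene on the opposite strand: Nr1d1 shares 263 bases (8.55% of its exons) with Thra, Cry2 shares 295 bases (4.67%) with D930015M05Rik and Arntl shares 33 bases (0.439%) with Gm45355. Whether the counting used the strand of the reads is not stated, so reads of these partners cannot be told apart over the shared bases.

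Sequence of the 250 bases before a transcription start was found in a RefSeq table (build GRCm38.p6) for 9 of the 10 members, in 13 windows. Per2 had no entry. The windows were searched on both strands for 6 motifs named in clock biology: the E-box CACGTG bound by the activator pair, the D-box TTATGTAA and its palindrome TTACGTAA bound by DBP, TEF, HLF and NFIL3, the ROR element AGGTCA read by the nuclear receptors, and the cAMP response element TGACGTCA with its shorter form TGACG, which lies within it. The Per3 window is shown whole because Per3 and most genes of D-box-binding factors differed between the batches (values below). It lies at chr4:151044666-151044915, overlaps no annotated exon, is printed 5′ to 3′ on the minus strand and has the D-box in capitals at 205 and 158 bases before the start.
Per3, D-box: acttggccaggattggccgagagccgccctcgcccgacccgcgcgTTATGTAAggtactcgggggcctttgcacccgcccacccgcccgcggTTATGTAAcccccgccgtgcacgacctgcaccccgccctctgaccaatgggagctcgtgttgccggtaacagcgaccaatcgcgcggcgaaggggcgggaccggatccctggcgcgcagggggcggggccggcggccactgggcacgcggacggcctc
Shorter stretches of 30 bases are shown for the E-box of Per1 (chr11:69098771-69098800, plus strand, 166 bases before the start) and of Cry1 (chr10:85185097-85185126, minus strand, 60 bases before the start), for the TGACG in a second Per1 window (chr11:69100008-69100037, plus strand, 132 bases before the start), since Per1 was the member that differed most with treatment, and for the ROR element of Nr1d2 (chr14:18239166-18239195, minus strand, 77 bases before the start).
Per1, E-box: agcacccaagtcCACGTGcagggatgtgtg
Cry1, E-box: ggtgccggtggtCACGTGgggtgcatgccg
Per1, TGACG: gagctcagcggcTGACGtcggtttccctgg
Nr1d2, ROR element: gattggaagaagAGGTCAggaccgctcgtt
Of the 32851 windows in the table, 6.02% held CACGTG, 0.819% held TTATGTAA, 14% held AGGTCA and 17.8% held TGACG. The ROR element AGGTCA was also found in windows of Clock and Per1, and TGACG in the first Per1 window (246 bases before the start) and in windows of Cry1 and Cry2. TTACGTAA (0.113% of windows) and TGACGTCA (1.55%) were found in no window of a member. The first Per1 window and those of Cry1 and Nr1d2 overlap annotated exons of the same gene. A match describes the letters of a window only.

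Corrected for exon length, the nuclear receptors were the most abundant members and Npas2 the least. Mean levels over the 20 mice, in CPM per kilobase of exon, were 40.43 ± 13.75 (SD, n = 20) for Nr1d1 and 20.96 ± 4.855 (SD, n = 20) for Nr1d2, followed by Per1 at 12.98 ± 8.783 (SD, n = 20). Cry2 stood at 8.97 and Cry1 at 5.05 CPM per kilobase. Among the activators Arntl reached 3.75, Clock 3.13 and Npas2 0.249 CPM per kilobase, with Per2 (2.29) and Per3 (2.15) between the last 2. Some neighbours in this order were separated in nearly every mouse: Nr1d1 lay above Nr1d2 in 20 of 20 mice, Cry2 above Cry1 in 19, Cry1 above Arntl in 17 and Per3 above Npas2 in 20. Others were not separated beyond the spread between mice: Nr1d2 lay above Per1 in 13 of 20 mice, Per1 above Cry2 in 12, Arntl above Clock in 13, Clock above Per2 in 14 and Per2 above Per3 in 11. Npas2 had only 4 to 37 counts per mouse, so its values carry more counting error than those of the other members.

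The members differed widely in how much they varied from mouse to mouse. The highest CPM was 16.1 times the lowest for Npas2 and 15.4 times for Per1, against 5.64 for Per2 and 5.46 for Per3. For Nr1d1, Cry2, Arntl, Nr1d2 and Clock this ratio was 3.41, 3.38, 3.19, 2.42 and 2.35, and for Cry1, the steadiest member, it was 1.57. After batch, sex and treatment had been taken out, the period genes and Npas2 still lay in the upper part of all genes tested by their residual SD of log2 CPM, at percentile 95.6 for Per2, 95.2 for Npas2, 91.8 for Per1 and 91.7 for Per3. Arntl (percentile 77.7), Cry2 (73.2) and Nr1d1 (69.7) followed, and Clock (53.9), Cry1 (44) and Nr1d2 (44) lay near the middle. The plot of levels by batch shows these spreads mouse by mouse.

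**Figure D1:**
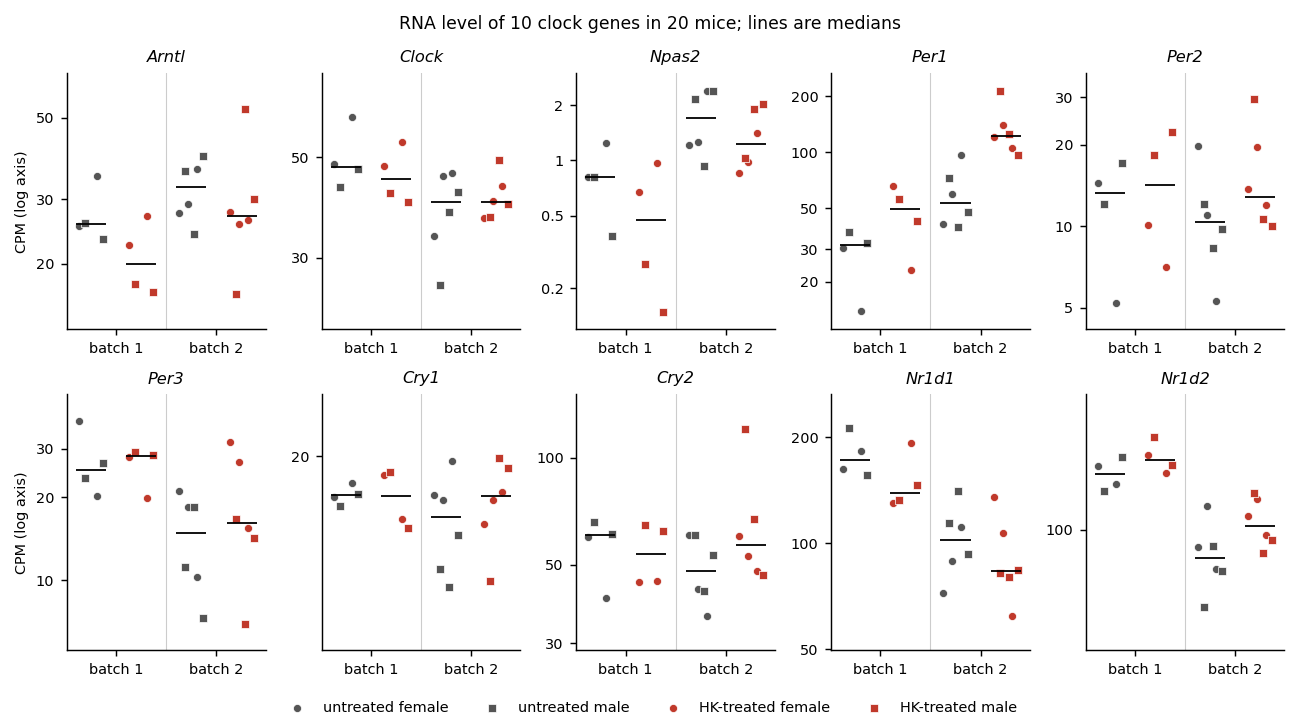
CPM (log axis) of the 10 clock genes in each of the 20 mice, by batch and treatment, with circles for females, squares for males and lines at the median of each treatment group within a batch. Per1 of the 6 HK-treated mice of batch 2 lies above that of the 6 untreated mice of the batch, and Nr1d2 of every mouse of batch 1 lies above that of every mouse of batch 2.

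The activating and repressing arms of the clock were set against each other by relating Arntl to the other 9 members over the mice, on log2 CPM after linear removal of batch and sex. Arntl ranged from 16.6 to 52.9 CPM with a median of 26.7. Its partner Npas2 ran with it, and Per2, Per3 and Nr1d2 ran against it, the direction known from the daily cycle for the Per genes. Nr1d1 and Cry1 did not run against it, and no relation passed the adjusted test (below). The lowest Arntl belonged to HK-treated male replicate 3, which also had the highest Per1 (213 CPM), Per2 (29.4 CPM) and Cry2 (121 CPM) of all mice, and the highest Arntl to HK-treated male replicate 4, which had the lowest Per3 (6.95 CPM). These were also the 2 mice farthest from the median of Arntl after the removal.

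Npas2, the substitute of Clock, had a Pearson r with Arntl of 0.77 (n = 20, permutation p = 0.00014, 0.277 after Benjamini-Hochberg adjustment over 12922 genes) and a Spearman rho of 0.85 (permutation p = 0.00022, adjusted 0.38). Without the 2 farthest mice r was 0.91, and it was 0.90 within batch 1 (n = 8, exact permutation p = 0.00174, the smallest that 576 arrangements allow) and 0.72 within batch 2 (n = 12, permutation p = 0.00874). Npas2 thus stood at place 4 from the top of all 12922 genes by r. Clock itself was less tightly tied to Arntl, with r = 0.46 (n = 20, permutation p = 0.132, adjusted 0.975; rho 0.54, permutation p = 0.0245, adjusted 0.755), and r was 0.81 in batch 1 (exact permutation p = 0.0191) and 0.32 in batch 2 (permutation p = 0.446). Without untreated male replicate 3 alone, which had the lowest Clock level (26.1 CPM), r with Clock was 0.74, without HK-treated male replicate 4 alone it was 0.23, and without the 2 farthest mice 0.34.

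Among the repressors, Per3 and Per2 had a negative r with Arntl. Per3 had r = -0.76 (n = 20, permutation p = 9e-05, adjusted 0.277), the lowest p of the 12922 genes together with Lrrfip1, and rho = -0.81 (permutation p = 0.00022, adjusted 0.38). It kept r = -0.75 without the 2 farthest mice, with -0.58 in batch 1 (exact permutation p = 0.123) and -0.76 in batch 2 (permutation p = 0.00195). For Per2, r was -0.69 (n = 20, permutation p = 0.00235, adjusted 0.467), rho -0.70 (permutation p = 0.00259, adjusted 0.486) and r without the 2 mice -0.69, with -0.77 in batch 1 (exact permutation p = 0.0347) and -0.61 in batch 2 (permutation p = 0.0281). Per1, which responds quickly to hormones and stress, followed this opposition only in part. Its r was -0.41 (n = 20, permutation p = 0.126, adjusted 0.97; rho -0.41, permutation p = 0.0874, adjusted 0.85) and -0.49 without the 2 mice, but -0.24 without HK-treated male replicate 3 alone and -0.61 without HK-treated male replicate 4 alone. By batch it was -0.77 in batch 1 (exact permutation p = 0.0226) and -0.23 in batch 2 (permutation p = 0.576). The cryptochromes gave r = -0.43 for Cry2 (permutation p = 0.18, adjusted 0.994; rho -0.37, permutation p = 0.139, adjusted 0.905) and r = 0.43 for Cry1 (permutation p = 0.207, adjusted 0.996; rho 0.23, permutation p = 0.436, adjusted 0.963). Both depended on single mice. For Cry1, r was 0.0052 without the 2 farthest mice and 0.20 without HK-treated male replicate 4 alone. For Cry2, r was -0.32 without the 2 mice, -0.088 without HK-treated male replicate 3 alone and -0.58 without HK-treated male replicate 4 alone. In batch 1 and batch 2 the r was -0.27 and -0.45 for Cry2 (permutation p = 0.557, exact, and 0.276) and 0.017 and 0.66 for Cry1 (permutation p = 0.97, exact, and 0.102).

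The 2 nuclear receptors parted. Nr1d2 opposed Arntl, as Per2 and Per3 did, with r = -0.70 (n = 20, permutation p = 0.00672, adjusted 0.652), rho = -0.77 (permutation p = 0.00045, adjusted 0.38), -0.74 without the 2 mice, -0.74 in batch 1 (exact permutation p = 0.0521) and -0.65 in batch 2 (permutation p = 0.053). Nr1d1 did not, with r = 0.18 (n = 20, permutation p = 0.443, adjusted 0.996), rho = 0.31 (permutation p = 0.178, adjusted 0.917) and r = 0.32 without the 2 mice (0.12 without HK-treated male replicate 3 alone, 0.37 without HK-treated male replicate 4 alone). In batch 1 Nr1d1 was high where Arntl was high (r = 0.80, exact permutation p = 0.0295), and in batch 2 there was no such order (r = -0.02, permutation p = 0.941). Without removal of batch and sex its r was -0.22. Whether any r differed between the batches was not tested.

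Of the 9 relations, 0 passed an adjusted p of 0.05 by the permutation test with Benjamini-Hochberg adjustment, and neither did any of the 12922 genes (0%), by Pearson r or by Spearman rho. The smallest p that 100000 permutations allow is 1e-05, so over this many genes none could pass alone, only together with others of a like p. At an unadjusted p under 0.05 there were 4 of 9 members, against 697 of 12922 genes (5.39%), in batch 1 alone 5 of 9 members against 3.66% of genes, and in batch 2 alone 3 of 9 against 5.96%. The members' r with Arntl had a median size of 0.456, against 0.184 over all genes. Per3, Nr1d2 and Per2 stood at places 10, 22 and 23 from the bottom of all genes by r.

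**Figure D2:**
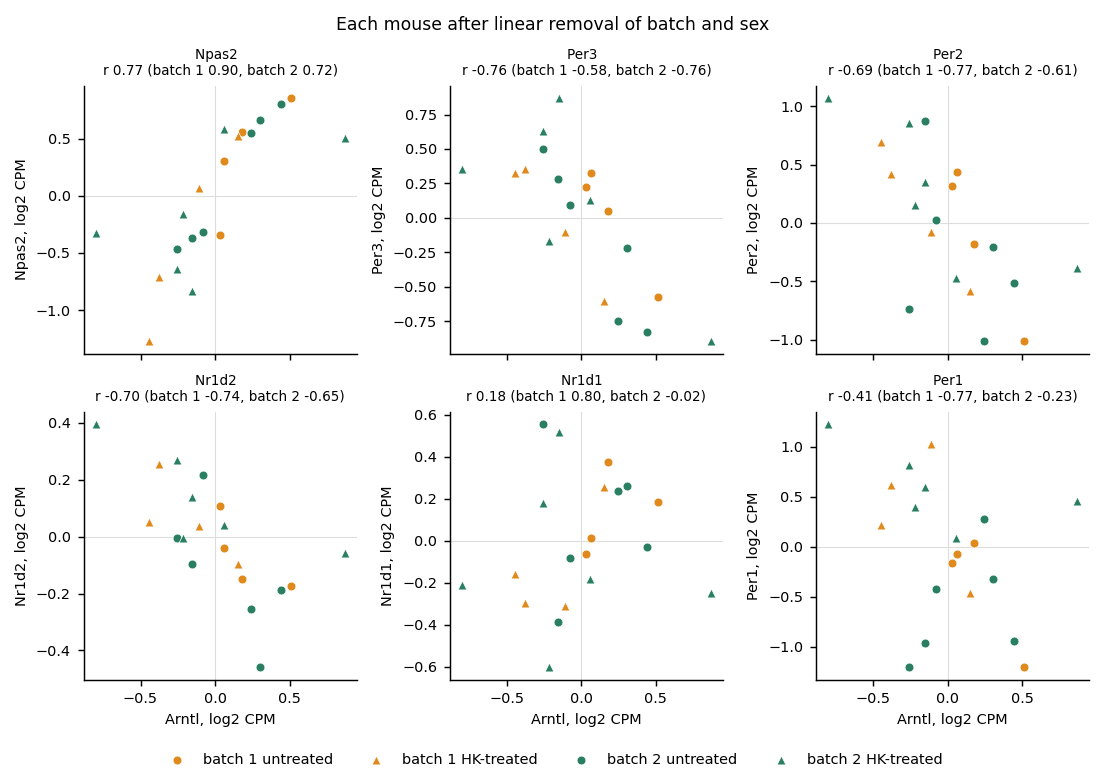
Log2 CPM of Npas2, Per3, Per2, Nr1d2, Nr1d1 and Per1 against that of Arntl in each mouse after linear removal of batch and sex (both axes centred at 0), with circles for untreated and triangles for HK-treated mice and colours for the batches. Npas2 is high where Arntl is high in both batches, Per3, Per2 and Nr1d2 are low there, and for Nr1d1 the batches part (r = 0.80 and -0.02).

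The r with Arntl was also computed within each treatment group, as a description of parts of the same 20 mice. In the 10 untreated mice it was 0.94 for Npas2, -0.95 for Per3, -0.56 for Per2 and -0.69 for Nr1d2. In the 10 HK-treated mice the same values were 0.65, -0.76, -0.83 and -0.80. For Cry1, Cry2 and Nr1d1 it was 0.26, -0.23 and 0.09 in untreated and 0.69, -0.56 and 0.04 in HK-treated mice. Per1 had an r of -0.49 in HK-treated and of 0.00093 in untreated mice. Clock had an r with Arntl of 0.83 in HK-treated and of 0.22 in untreated mice, but its r depended on single mice. Over all 20 mice it was 0.74 without untreated male replicate 3 alone and 0.23 without HK-treated male replicate 4 alone. The r of Clock within a treatment group was not computed without these mice, so a closer tie in either group cannot be read from it. Whether any r differed between the treatment groups was not tested.

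All 45 pairs of members were described in the same way, with no test. After removal of batch and sex 21 pairs had a positive and 24 a negative r, and 11 had an r beyond 0.6 in size. Among the repressors the highest r was 0.79 for Per2 and Cry2 (0.70 in batch 1, 0.88 in batch 2), then 0.69 for Per2 and Per3 (0.92 and 0.56), while Per1 and Per3 had 0.27. Cry1 ran slightly against Per2 (-0.19), Per3 (-0.33) and Cry2 (-0.25). Npas2 and Per3 formed the most opposed pair (r = -0.77, with -0.51 in batch 1 and -0.87 in batch 2). The r had the same sign in both batches for 37 of the 45 pairs and opposite signs for 8. Of those 8, 4 involved Nr1d1, which ran with Arntl (0.80), Npas2 (0.82) and Clock (0.49) in batch 1 and not in batch 2. Nr1d1 and Nr1d2, which share their target sites, ran against each other in batch 1 (r = -0.89) and had an r of -0.11 in batch 2.

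**Figure D3:**
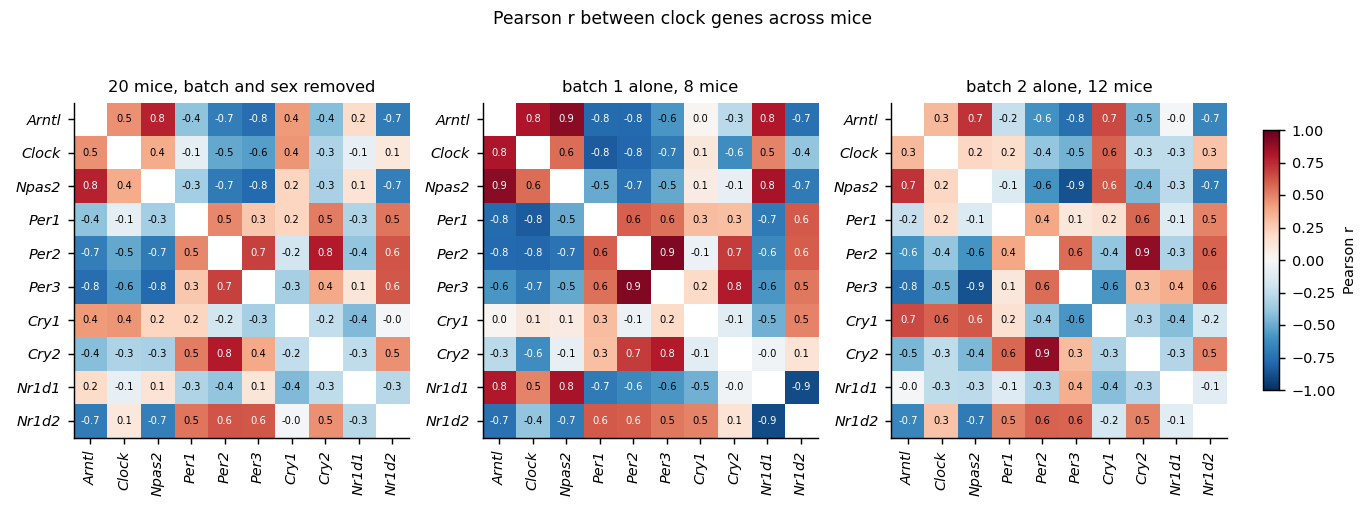
Pearson r of each pair of clock genes as a colour from -1 (blue) to 1 (red) with its value printed in the square, over all 20 mice after removal of batch and sex, over the 8 mice of batch 1 and over the 12 mice of batch 2. Arntl and Npas2 against the period genes are blue in each panel, and Nr1d1 against Arntl and Npas2 is deep red in batch 1 (0.80 and 0.82), pale over all mice (0.18 and 0.14) and on the blue side in batch 2 (-0.02 and -0.26).

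The other genes of the pathway were read against the same axis. The 9 output and feedback genes, which carry the rhythm from the core loop to other genes, had a median r with Arntl of -0.66, against -0.00082 over all genes tested. Dbp, a D-box-binding activator switched on by the ARNTL pair, had r = -0.79 (rho -0.77, -0.63 without the 2 mice, -0.31 in batch 1 and -0.86 in batch 2), and Tef, its relative, had r = -0.67 (rho -0.78, -0.71 without the 2 mice, -0.77 and -0.58 in the batches). The repressor Nfil3, which competes with DBP for the D-box, had r = 0.33 (rho 0.23, 0.30 without the 2 mice), with -0.55 in batch 1 and 0.42 in batch 2. For the 6 markers of slow fibres the median r with Arntl was 0.416, for the 8 of fast fibres -0.276 and for the 10 of macrophages 0.0599. The part of fibre type in these relations was not tested.

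Over the 20 mice after removal of batch and sex, the 5 genes with the highest r to Arntl were Miga2 (0.81), Rims4 (0.80), Mb (0.80), Npas2 (0.77) and Ndufv1 (0.76). The 5 with the lowest were Ss18l1 (-0.82), Ppargc1b (-0.81), Lrrfip1 (-0.79), Dbp (-0.79) and Ptx3 (-0.78). For Miga2 and Mb the relation held in each batch, at 0.89 and 0.78 for Miga2 and 0.73 and 0.78 for Mb, while Ss18l1 and Ptx3 had -0.92 and -0.88 in batch 2 but -0.21 and -0.11 in batch 1. The same measure against Per2 put Rev1 (0.85), Hlf (0.83), Wnt4 (0.80), Napa (0.80) and Cry2 (0.79) at the top. Mmachc (-0.85), Mterf2 (-0.84), Coq3 (-0.82) and Mdh1 (-0.81) were near the bottom. These were chosen out of all genes tested by the value given, which is therefore a description.

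HK-treated and untreated mice were compared to see whether 4 months of the extract changed the RNA of the old muscle. Per1 was the member with the largest difference. It ran from 13.9 to 96.7 CPM with a median of 40.2 in the 10 untreated mice and from 23.3 to 213 CPM with a median of 101 in the 10 HK-treated mice. In batch 2 the 6 HK-treated mice (97.0 to 213 CPM, median 123) all lay above the 6 untreated mice (39.5 to 96.7 CPM, median 53.5). In batch 1 the HK-treated mice were at 23.3, 42.6, 56.1 and 65.4 CPM and the untreated mice at 13.9, 30.5, 32.5 and 37.4 CPM. The groups overlapped there through HK-treated female replicate 2, the lowest of its group. The fitted log2 fold change (HK-treated minus untreated, batch and sex as covariates) was 0.99 (SE 0.22, 95% interval 0.54 to 1.44), and 9 of 10 HK-treated mice exceeded the untreated median. With an unadjusted p of 0.000175 Per1 had place 5 of 12923 genes, but its adjusted p by edgeR's quasi-likelihood test was 0.451. Within batch 2, 1 of 10 members had HK-treated mice all above untreated mice, against 7 of 12923 genes (0.0542%), and no member did so over all 20 mice (0% of genes). The share for batch 2 was taken only for the batch and direction in which Per1 separated, and is a description. The nearest mice of the 2 groups were there at 97.0 and 96.7 CPM.

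The other repressors differed less. Per2 ran from 5.21 to 19.8 CPM (median 11.5) in untreated and from 7.05 to 29.4 CPM (median 12.9) in HK-treated mice, and Per3 from 7.28 to 37.9 CPM (median 19.4) and from 6.95 to 31.8 CPM (median 23.4). The groups overlapped almost fully for both, with log2 fold changes of 0.39 (SE 0.26, p = 0.144) for Per2 and 0.20 (SE 0.21, p = 0.361) for Per3, which had 0.09 without HK-treated female replicate 3. Cry1 and Cry2 had log2 fold changes of 0.06 and 0.21 (SE 0.08 and 0.15), so all 5 repressors had a positive estimate, as 6592 of 12923 genes did. The sign was not stable for 3 of them. In batch 1 alone Per3 (-0.04), Cry1 (-0.02) and Cry2 (-0.08) were negative, in females alone Cry1 was (-0.08), and Cry1 and Cry2 were 0.02 without HK-treated male replicate 4 and 0.08 without HK-treated male replicate 3, respectively. Among the activators, Arntl ran from 23.4 to 39.4 CPM (median 28.3) in untreated and from 16.6 to 52.9 CPM (median 26.0) in HK-treated mice, and 8 of 10 HK-treated mice were below the untreated median. HK-treated mice held both the lowest 4 values and the highest value of Arntl, and the log2 fold change was -0.22 (SE 0.16, p = 0.188), or -0.38 without HK-treated male replicate 4. Npas2 had -0.47 (SE 0.28, p = 0.109) and Clock 0.01 (SE 0.09).

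Of the nuclear receptors, Nr1d2 ran from 66.8 to 146 CPM (median 102) in untreated and from 88.4 to 161 CPM (median 119) in HK-treated mice, with 7 of 10 HK-treated mice above the untreated median and overlapping groups. Its log2 fold change was 0.20 (SE 0.08, unadjusted p = 0.0178, edgeR adjusted p = 0.799). Nr1d1 had -0.20 (SE 0.13, 95% interval -0.48 to 0.07, p = 0.137), and 0.05 in females alone.

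By the quasi-likelihood test of edgeR, adjusted over all genes after Benjamini and Hochberg, 0 of the 10 members and 0 of 12923 genes (0%) passed 0.05. At an unadjusted p under 0.05 there were 2 of 10 members (Per1 and Nr1d2) against 786 genes (6.08%), limma voom called 0 genes, and DESeq2 called 6 genes, of which Per1 was the only member (log2 fold change 0.99, adjusted p = 0.0161). Over the alternatives the adjusted p of Per1 ran from 1.64e-42, in an edgeR fit without a filter that did not use each gene's own spread, to 1.0. The lowest p over all genes belonged to Snai3 (log2 fold change -0.38, SE 0.07, adjusted p = 0.293) and Gm9522 (-0.86, SE 0.21, adjusted p = 0.690) among genes lower in HK-treated mice, and to Arrdc3 (0.85, SE 0.17) and Slc25a25 (1.72, SE 0.36), both with an adjusted p of 0.366, among genes higher. Without HK-treated female replicate 1 the edgeR fit called 1 gene, Snai3 (adjusted p = 0.0157). The hour of sampling is not given for any mouse, and its part in the difference of Per1 was not tested.

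**Figure D4:**
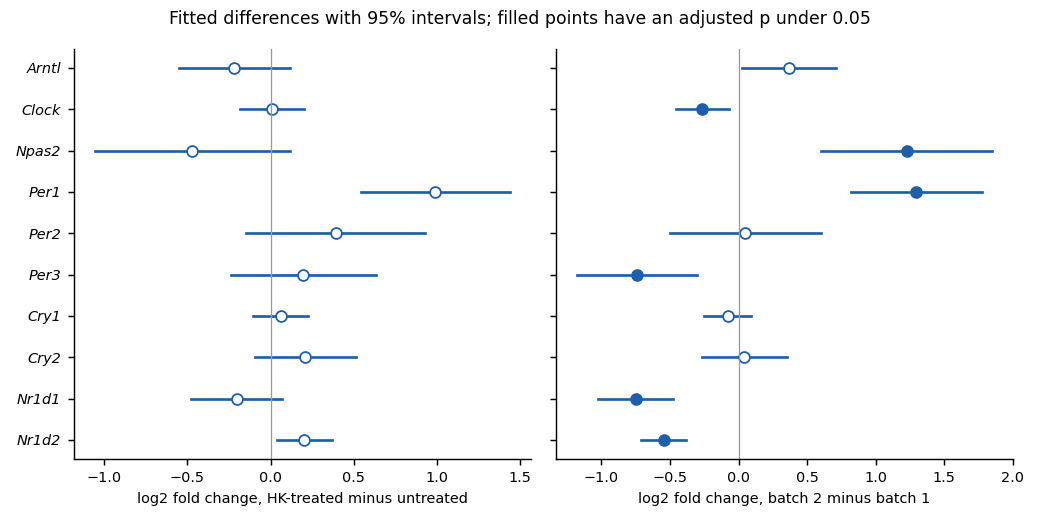
Fitted log2 fold change of each clock gene with its 95% interval, HK-treated minus untreated on the left and batch 2 minus batch 1 on the right, with filled points where the edgeR adjusted p is under 0.05. No point is filled on the left, where Per1 lies farthest from 0 at 0.99, and 6 are filled on the right.

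Other genes of the pathway were read by count and median beside all genes, whose median log2 fold change was 0.0024. The lists were chosen with earlier results of these data known, so their counts are a description. All 9 output and feedback genes had a positive estimate (median 0.34). Usp2, a deubiquitinase under clock control, had 0.40 (SE 0.11, p = 0.0016), Wee1, a cell-cycle kinase, 0.35 (SE 0.13, p = 0.0144), and Ciart, a repressor of the ARNTL pair, 1.09 (SE 0.42, p = 0.0169). Of the 13 genes of inputs that raise Per1 or Per2, such as cAMP, calcium and glucocorticoid signalling, 12 had a positive estimate (median 0.574). This list includes genes that respond to these signals, so a place in it does not mean that a gene itself raises Per1 or Per2. Sik1, a kinase induced by cAMP, had 1.15 (SE 0.27, p = 0.000418, edgeR adjusted p = 0.690), and Tsc22d3, a glucocorticoid target also known as Gilz, had 0.42 (SE 0.13, p = 0.003, edgeR adjusted p = 0.799). Nr4a1 (0.75), Junb (1.15) and Sgk1 (0.41) also had an unadjusted p under 0.05, and Fkbp5, another glucocorticoid target, was the exception in direction (-0.29, SE 0.27). The summed level of these 13 genes was 1431 to 3410 CPM in HK-treated and 856 to 1833 CPM in untreated mice of batch 2, and 689 to 888 and 610 to 714 CPM in batch 1. What links Per1 to these genes was not tested. In none of these lists did a gene pass an edgeR adjusted p of 0.05.

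Of the 15 tested kinases, ligases and cofactors that act on clock proteins, 11 had a positive estimate (median 0.05), with Sirt1 at 0.20 (SE 0.10, p = 0.0605) and Nono at -0.05 (SE 0.04, p = 0.259) as the lowest p in each direction, and 0 had an unadjusted p under 0.05. The ROR gene Rora had 0.18 (SE 0.10, p = 0.1) and the Arntl relative Arntl2 -0.07. Markers of other cells and fibres were read beside these values. All 6 slow fibre markers had a negative estimate (median -0.703, 3 with an unadjusted p under 0.05), with Myh7 the most abundant and a summed level of 596 to 2978 CPM in HK-treated and 639 to 5673 CPM in untreated mice. The highest sum belonged to untreated male replicate 3, and the other untreated mice reached at most 3779 CPM, and how far this mouse carries the difference was not tested. Of 10 macrophage markers 9 were negative (median -0.264), and of the other lists all 5 endothelial (-0.26), all 5 fibro-adipogenic (-0.224) and all 3 satellite cell markers (-0.135) were negative, while the 4 Schwann cell (0.351) and 2 blood markers (0.51) were positive. The 8 fast fibre (0.0257) and 5 adipocyte markers (-0.0313) had medians nearer 0. In bulk muscle, fewer cells of a type and less RNA per cell cannot be told apart, and the part of cell makeup in the clock genes' values was not tested.

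The interaction of treatment with sex was tested in 13626 genes and that with batch in 13800, to see whether the difference between HK-treated and untreated mice itself differed. For Per1 the difference was larger by 0.12 in males than in females (SE 0.44, p = 0.793) and by 0.43 in batch 2 than in batch 1 (SE 0.44, p = 0.336) on the log2 scale. Nr1d1 came nearest to the threshold, with a difference lower by 0.50 in males (log2 -0.50, SE 0.24, p = 0.05, edgeR adjusted p = 0.998). In the edgeR tests 0 genes were called for either interaction (0% of each), with 476 (3.49%) and 416 (3.01%) at an unadjusted p under 0.05. No other tool was run on the interactions.

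Males and females differed in 2174 of 12923 genes (16.8%) by edgeR's quasi-likelihood test, of which 1230 (9.52%) were higher and 944 (7.3%) lower in males, but in 0 of the 10 members. At an unadjusted p under 0.05 there was 1 member, against 30.8% of genes, and the sexes were apart without overlap in 0 members, against 1.35% of genes. DESeq2 and limma voom also called 0 members. The 1 member with such a p, Cry2, ran from 35.8 to 60.4 CPM (median 46.5) in the 10 females and from 42.2 to 121 CPM (median 61.4) in the 10 males, and 9 of 10 males lay above the female median although the sexes overlapped. The log2 fold change (male minus female) was 0.38 (SE 0.15, edgeR adjusted p = 0.0762), and it passed 0.05 when untreated male replicate 4 (adjusted p = 0.0445), untreated female replicate 1 (0.0422), untreated female replicate 3 (0.0448) or HK-treated male replicate 5 (0.0467) was left out. Without HK-treated male replicate 3, the mouse at 121 CPM, it was 0.24 and did not pass. Per3 (-0.41, SE 0.21) and Clock (-0.17, SE 0.09) had estimates on the female side with adjusted p of 0.194 and 0.214 in the same edgeR fit. Of the 9 output and feedback genes 3 were called, all higher in males: Bhlhe41, a repressor of the ARNTL pair, by 0.83 (SE 0.17, adjusted p = 0.00167), Usp2 by 0.37 (SE 0.11, adjusted p = 0.0232) and Tef by 0.25 (SE 0.08, adjusted p = 0.034). No gene of the 13 inputs, of the 15 modifiers or of the 4 tested nuclear receptors was called. Of the slow fibre markers 5 of 6 were lower in males (median -1.14), as were 4 of 5 adipocyte (median -1.27) and 2 of 4 Schwann cell markers (-0.674), while 2 of 10 macrophage markers were higher (median 0.625). The 8 fast fibre markers went both ways (median 0.0435), with Ckm and Tnnt3 called higher and Myh2 lower in males. Their part in the difference of output genes was not tested.

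The 2 batches differed far more in the clock genes than the treatment groups or the sexes did. By edgeR's quasi-likelihood test 6 of the 10 members were called, against 4720 of 12923 genes (36.5%), and DESeq2 and limma voom each called 6 as well. Of the 6, 2 were higher in batch 2 (19% of genes) and 4 lower (17.6%), and 7 of 10 members had an unadjusted p under 0.05, against 46.6% of genes. With so many genes called, 6 of 10 lies above the share of all genes by a margin of few genes. Batch and the mice within it cannot be told apart, and neither can whatever else differed between the experiments, such as depth. The hour of sampling and the facility of each mouse are not given, so whether they differed between the batches was not tested.

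Among the activators Npas2 rose and Clock fell from batch 1 to batch 2. Npas2 ran from 0.149 to 1.24 CPM (median 0.741) in the 8 mice of batch 1 and from 0.850 to 2.40 CPM (median 1.34) in the 12 mice of batch 2. All 12 mice of batch 2 lay above the median of batch 1, with overlap at its upper end, and the log2 fold change (batch 2 minus batch 1) was 1.23 (SE 0.30, adjusted p = 0.00347, edgeR). Clock, at 39.9 to 61.3 CPM (median 47.5) in batch 1 and 26.1 to 49.4 CPM (median 39.8) in batch 2, had -0.26 (SE 0.09, edgeR adjusted p = 0.032). That call was lost without untreated male replicate 2 (adjusted p = 0.0574), untreated female replicate 2 (0.0634), untreated female replicate 3 (0.0505) or HK-treated female replicate 2 (0.0567), although the log2 fold change was then still -0.26, -0.23, -0.23 and -0.25. It was also lost in each treatment group alone. Arntl had 0.37 (SE 0.16, edgeR adjusted p = 0.0831) and was called, at 0.42 with an adjusted p of 0.0363, without HK-treated male replicate 3. Without HK-treated male replicate 4 it was 0.23 and was not called.

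The repressors moved in different directions. Per1 ran from 13.9 to 65.4 CPM (median 35.0) in batch 1 and from 39.5 to 213 CPM (median 96.9) in batch 2, where all 12 mice exceeded the median of batch 1. Its log2 fold change was 1.30 (SE 0.23, adjusted p = 0.000297, edgeR), with 1.08 in untreated and 1.51 in HK-treated mice alone. Per3 fell, from 19.8 to 37.9 CPM (median 27.4) in batch 1 to 6.95 to 31.8 CPM (median 16.1) in batch 2, where 1 of 12 mice exceeded the median of batch 1, with -0.74 (SE 0.21, edgeR adjusted p = 0.0098). In HK-treated mice alone, with fewer mice, the log2 fold change of Per3 was -0.58 and did not pass the edgeR test (adjusted p = 0.233). Per2 (0.05, SE 0.26), Cry1 (-0.08, SE 0.08) and Cry2 (0.04, SE 0.15) differed by less than the spread between mice.

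Both nuclear receptors fell. Nr1d1 ran from 130 to 212 CPM (median 160) in batch 1 and from 62.1 to 140 CPM (median 91.3) in batch 2, so that the batches met only at their edges, and its log2 fold change was -0.75 (SE 0.13, edgeR adjusted p = 0.000293). Nr1d2 ran from 122 to 161 CPM (median 140) in batch 1 and from 66.8 to 121 CPM (median 93.1) in batch 2. The batches did not overlap in Nr1d2, which held for 1 of 10 members and for 430 of 12923 genes (3.33%), and the log2 fold change was -0.55 (SE 0.08, edgeR adjusted p = 6.0e-05). Nr1d1 and Nr1d2 thus fell together between batches, although within batch 1 they ran against each other.

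In the rest of the pathway the D-box factors went both ways: Dbp, Hlf and Tef fell, as Per3 did, and Nfil3 rose. Dbp fell by 1.69 on the log2 scale (SE 0.28, edgeR adjusted p = 0.000204), Hlf by 0.67 (SE 0.17, adjusted p = 0.00455) and Tef by 0.42 (SE 0.08, adjusted p = 0.000461), while the competing repressor Nfil3 rose by 2.36 (SE 0.25, edgeR adjusted p = 1.97e-06). With Bhlhe41 (-0.44) lower and Usp2 (0.37) higher, 6 of 9 output and feedback genes were called, against 36.5% of all genes. Of these, 2 were higher and 4 lower (median of the 9 -0.245, against 0.0123 over all genes). The Per3 promoter shown above holds the D-box in both positions, and whether these factors bear on its level was not tested. The ROR gene Rora (-0.37) was lower, and among modifiers of clock proteins Rack1 (0.16) was higher and Gsk3b (-0.21), Csnk1a1 (-0.19) and Btrc (-0.16) were lower.

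Of the 13 genes of inputs that raise Per1 or Per2, 10 were called, all higher in batch 2 (median 1.59). Of all genes tested, 36.5% were called between the batches and 19% were called higher in batch 2. They include the immediate early genes Fosb (log2 fold change 5.51, SE 0.97), Fos (4.31, SE 0.72), Egr1 (3.63, SE 0.70), Atf3 (3.45, SE 0.48) and Junb (2.59, SE 0.49), which respond within minutes to many stimuli, as well as Sik1 (2.54, SE 0.30), Nr4a1 (1.59), Crem (0.68) and the glucocorticoid targets Fkbp5 (1.10) and Tsc22d3 (0.93). Markers of other cells also differed: all 10 macrophage markers were higher in batch 2 (median 1.85), with the largest log2 fold change in Cd68 (2.73). C1qb was the most abundant of the 10, and none was at 0 in any mouse. The 10 markers summed to 16 to 49.1 CPM in batch 1 and 44.4 to 188 CPM in batch 2. All 5 fibro-adipogenic (median 0.763) and both tested blood markers (1.27) were higher too, with 1 of 5 adipocyte, 1 of 5 endothelial and 2 of 8 fast fibre markers, and 0 of 6 slow fibre, 3 satellite cell and 4 Schwann cell markers were called by edgeR in either direction. The part of these cells and of the inputs in the batch difference of the clock genes was not tested.

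**Figure D5:**
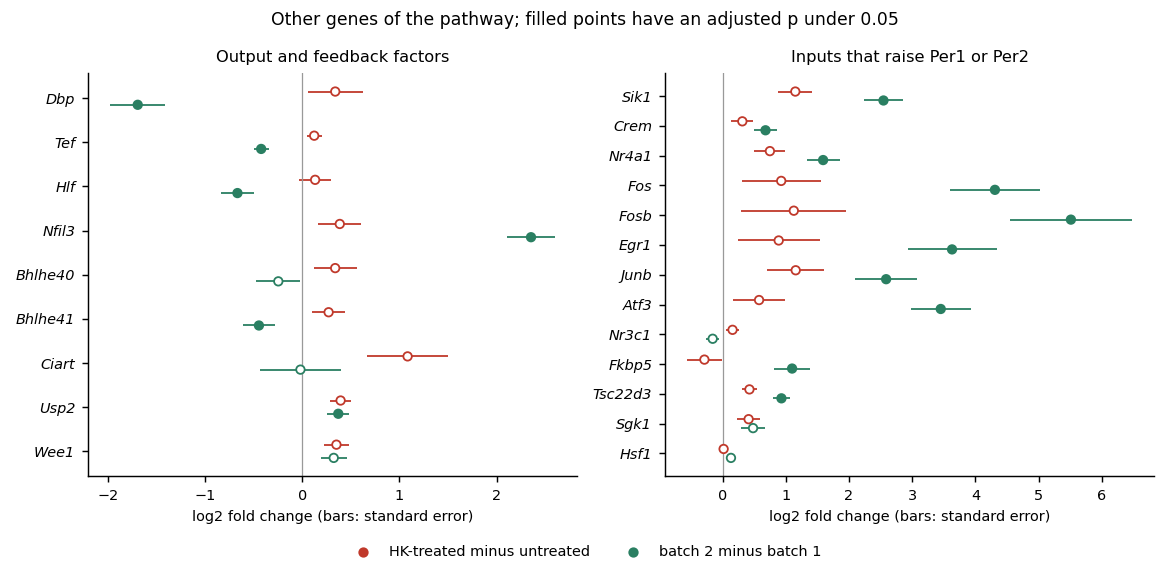
Log2 fold change with its standard error for the output and feedback genes (left) and the genes of inputs that raise Per1 or Per2 (right), red for HK-treated minus untreated and green for batch 2 minus batch 1, filled where the edgeR adjusted p is under 0.05. No red point is filled, and 10 of 13 green points on the right are filled, all above 0.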

How the data were processed

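The authors extracted RNA from gastrocnemius, depleted ribosomal RNA (NEBNext), sequenced on an Illumina NextSeq, aligned reads with STAR 2.6.1c to GRCm38.p6 with GENCODE M25, and deposited raw counts per gene. The counting tool and its use of strand and of reads with several matches are not stated. The study's young mice are not part of these comparisons. Counts had a total of 13900180 to 30469644 per mouse (median 17016047), which leaves genes such as Npas2 with few counts.

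Symbols and lengths of exons were taken from GENCODE M21, which held 55141 of the 55401 identifiers and lacked 260. Low counts were filtered with filterByExpr, which kept 12923 genes, and libraries were scaled by TMM. edgeR 4.0.16 quasi-likelihood tests in R 4.3.3 used batch, sex and treatment as covariates, with Benjamini-Hochberg adjustment over all genes kept, and a gene was called at an adjusted p under 0.05. Alternatives used limma 3.58.1 (voom), DESeq2 1.42.0, DESeq2 size factors, other filters, other covariates, subsets of mice and each mouse left out in turn. Correlations used log2 CPM (prior count 2) after linear removal of batch and sex, computed with scipy 1.17.1, pandas 2.3.3 and numpy 2.4.6 (Python 3.11.15), with 100000 permutations within batch and sex, or all 576 in batch 1. Plots were made with matplotlib 3.10.9. The code was checked on simulated counts.

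All 10 members are named. From each other list the genes past the threshold and the 2 with the lowest p in each direction for treatment could be named, from all genes the 2 with the lowest p in each direction, and for Arntl and Per2 the 5 genes with the highest and the 5 with the lowest r. Some genes that this rule names are not described. Other names were chosen after their values were seen. The members and lists were chosen with earlier results of these data known.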

Additional observations from a re-analysis of the deposited data

Results flagged for a closer look

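In each treatment group the highest and lowest mouse of each member was compared with the others by Dixon's ratio, on log2 CPM after removal of batch and sex. Of 20 groups looked at, 2 held a mouse far from the others, and about 1 in 20 groups would be picked out by chance. Cry2 in HK-treated male replicate 3 was 121 CPM, against 44.8 to 67.0 CPM in the other HK-treated mice (ratio 0.47, just past the critical value for 10 mice). Clock in HK-treated male replicate 4 was 49.4 CPM, inside the 36.7 to 54.0 CPM of the other HK-treated mice but far above them once batch and sex were removed (ratio 0.533). These are also the mice with the lowest and the highest Arntl. What sets them apart was not tested.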

How the results depend on the processing

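For HK-treated against untreated mice, 0 genes and 0 members were called by edgeR under most settings. DESeq2 called 6 genes and 1 member (Per1). Without a filter on low counts edgeR called 502 genes and 2 members (Per1 and Per2), but there its prior degrees of freedom were infinite, so that each gene's own spread was not used. A filter of at least 20 counts over all mice, chosen after the data had been seen, kept 18445 genes, and with it 0 genes were called. With 1 mouse left out the number of genes called ran from 0 to 1 and that of members stayed 0. Per1 kept its direction throughout, from 0.88 to 1.12 (log2) with 1 mouse left out and from 0.75 in batch 1 to 1.18 in batch 2 alone. Arntl, Npas2, Per2 and Nr1d2 also kept theirs. Clock, close to 0, reversed to -0.00436 without covariates, -0.126 in batch 1 and -0.0844 in females, and ran from -0.0499 to 0.0469 with 1 mouse left out. In batch 1 alone Per3 (-0.0396), Cry1 (-0.0159) and Cry2 (-0.0835) reversed, and in females alone Cry1 (-0.0781) and Nr1d1 (0.0471). The cause was not tested.

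Between the sexes 0 members were called except without a filter, where 3 were (Per2, Per3 and Cry2), and with 1 mouse left out 0 to 1. The fit without a filter called 2784 of 30096 genes, and as above it did not use each gene's own spread. Genes called ran from 1792 to 2277 with 1 mouse left out and were 411 in untreated and 552 in HK-treated mice alone, which hold fewer mice. Nr1d1 reversed to 0.0146 with limma voom and 0.241 in untreated mice alone, and Cry1 to 0.0095 in HK-treated mice alone. With 1 mouse left out Arntl ran from -0.213 to 0.0313 and Nr1d1 from -0.0677 to 0.0696. The cause was not tested.

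Between the batches genes called ran from 4152 to 4923 and members from 5 to 7 with 1 mouse left out. In fewer mice, untreated or HK-treated alone, 1693 and 1079 genes and 4 and 3 members were called. Npas2, Per1, Nr1d1 and Nr1d2 fell or rose alike in every fit that held them. Npas2 was filtered out in the fits of 1 treatment group. Per2 reversed to -0.118 and Cry2 to -0.196 in untreated mice alone. With 1 mouse left out Per2 ran from -0.0899 to 0.171 and Cry2 from -0.0727 to 0.119. The cause was not tested.

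For the relations with Arntl 0 members were called under all 30 alternatives, which shows little, because permutations allow no p below 0.00174 in batch 1 and 0.00694 in 1 treatment group, so that a call over all genes was hardly possible there. Nr1d1 reversed to r = -0.218 without removal of batch and sex and to -0.0228 in batch 2, and Per1 to 0.00093 in untreated mice. The cause was not tested. All other relations kept their direction.

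Replicate numbers recur in both treatment groups, so a replicate block was fitted. It called 0 genes and 0 members, with Per1 at 1.01 (edgeR adjusted p = 0.106). The 10 same-numbered pairs correlated from -0.36 to 0.279, and 4 of 10 did best with their own number. The match was sought only among untreated mice of the same batch and sex, 2 in batch 1 and 3 in batch 2. With so few candidates many match by chance, so this cannot decide whether the numbers pair the mice.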
